A study of Mus musculus with 4 samples.

Results

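The 10 genes described here encode the transcription regulators that start the trophectoderm programme, the first epithelial lineage of the mouse embryo. They are Tead4, Tead1, Cdx2, Gata3, Gata2, Tfap2c, Tfap2a, Eomes, Elf3 and Id2, taken by symbol from the authors' deposited comparison of 13658 genes, in which all 10 were present. The comparison is between wild-type mouse morulae that received small interfering RNA against Nr1h2 (siNr1h2, 2 samples) and morulae that received a non-targeting pool (siNT, 2 samples). Both groups were injected as fertilized 1-cell embryos with 4 to 5 pL at 100 µM and cultured in M16 medium to the morula stage. Nr1h2 encodes LXRβ, a nuclear receptor activated by oxysterols. The number of embryos per sample is not given in the sources used here, and nothing in them says whether the samples of a group came from separate injections. The p-values thus rest on spread between these samples as the authors' fit estimated it, which may be technical. How far that fit shared spread between genes is not given. The table gives 1 fold change per gene and no value per sample, so whether the groups overlapped in single samples cannot be shown.

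In the cleaving embryo, outer cells acquire an apical domain that keeps Hippo signalling low, and YAP1 and its relative TAZ then enter the nucleus and bind TEAD4. This complex activates Cdx2, while Gata3 responds to TEAD4 alongside it, and both turn on keratins, junction and transport genes as the blastocyst cavity forms. AP-2 factors act in the same outer cells and on Cdx2, EOMES follows in the trophoblast, and CDX2 and OCT4 (Pou5f1) oppose each other at the border with the inner cell mass.

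Promoter windows of 7 of the 10 genes were found by symbol in the RefSeq set for GRCm38.p6, each holding 250 bases before and 50 after an annotated start. Tead4, Tead1 and Tfap2c were not matched. The 3 windows below are shown because they belong to the central factors Cdx2 and Gata3 and to Elf3, the member with the highest level per kb of exon, and because each holds a word read by the protein of another member. Capitals mark GCCNNNGGC, the palindromic word bound by AP-2 factors, in Cdx2 (chr5:147307200-147307499, minus strand) and Gata3 (chr2:9878551-9878850, minus strand). In Elf3 (chr1:135258423-135258722, minus strand) they mark GGAATG, the word bound by TEAD factors.
Cdx2: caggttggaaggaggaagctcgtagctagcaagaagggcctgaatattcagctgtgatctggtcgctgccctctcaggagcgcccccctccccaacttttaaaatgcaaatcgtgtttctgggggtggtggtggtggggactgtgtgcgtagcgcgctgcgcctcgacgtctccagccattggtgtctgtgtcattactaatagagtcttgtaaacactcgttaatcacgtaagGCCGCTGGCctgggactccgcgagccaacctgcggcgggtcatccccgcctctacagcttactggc
Gata3: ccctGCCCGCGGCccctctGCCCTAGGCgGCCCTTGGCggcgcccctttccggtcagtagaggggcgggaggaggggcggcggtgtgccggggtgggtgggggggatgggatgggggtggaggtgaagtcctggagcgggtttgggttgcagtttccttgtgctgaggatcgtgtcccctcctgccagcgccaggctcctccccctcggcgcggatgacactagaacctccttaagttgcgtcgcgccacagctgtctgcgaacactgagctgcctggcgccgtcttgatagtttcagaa
Elf3: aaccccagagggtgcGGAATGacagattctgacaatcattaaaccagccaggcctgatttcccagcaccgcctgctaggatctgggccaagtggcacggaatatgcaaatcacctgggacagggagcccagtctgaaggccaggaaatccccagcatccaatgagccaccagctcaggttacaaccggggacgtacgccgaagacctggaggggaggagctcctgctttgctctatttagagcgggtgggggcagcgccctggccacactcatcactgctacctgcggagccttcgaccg

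The Cdx2 window held 1 AP-2 word, which began 16 bases before the annotated start, and the Gata3 window held 3, all in its first 38 bases. The word was present in 3 of the 9 windows of the members (Cdx2, Gata3 and 1 of 2 Gata2 windows) and in 16.6% of all 32851 promoter windows, with both strands searched. The TEAD word was present in Elf3 and in the same Gata2 window, and in 14.7% of all windows. The word TTTATG, bound by caudal-type homeobox factors, occurred in Id2 and in 1 Tfap2a window, and in 11.9% of all windows. The GATA word AGATAA occurred in no member window and in 11.2% of all. The nuclear receptor half-site AGGTCA, which the LXRβ dimer reads as a direct repeat with 4 bases between (a DR4 element), occurred in no member window. The half-site was present in 16.3% of all windows and the DR4 element in 5 of 32851. The members' windows had a median GC content of 61.0%, against 52.7% over all windows, which bears on GC-rich words. These matches describe letters in 300 bases around the start and no binding was measured.

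The knockdown was present in the table. In the authors' deposited table the siRNA target, Nr1h2, was lower by 5.03 times after its own siRNA (adjusted p = 3.61e-31), with a 95% interval from 3.89 to 6.50. Markers of the preimplantation embryo, fixed as a list of 12 genes, were all present at mean normalized counts of at least 456. Of 14 markers of cumulus and granulosa cells, which surround the egg, 3 were in the table, with a highest mean of 29.6 (Star, log2 fold change -0.74 ± 0.50 (SE) in the authors' deposited table). Cyp19a1 and Foxl2, at means of 2.89 and 1.94, also had estimates below 0, and the part of such cells in the results was not tested. Of 11 genes listed as blood and immune markers, 4 were in the table, led by Cd68 at 150. From the list of 8 sperm markers only Odf2 was in the table, at 390, and the other 7 were not. Whether the RNA of Cd68 and Odf2 came from such cells or from the embryo itself was not tested. Of these 8 genes listed for other cells, 4 had an adjusted p (Star, Cd68, Hba-a1 and Odf2) and none of the 4 passed the test. Cyp19a1, Foxl2, Cd3e and Cd79a had no adjusted p and could not pass. A gene not in the table has no value here.

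None of the trophectoderm factors was called, that is, had an adjusted p under 0.05 in the Wald test that the authors deposited under DESeq2 column names. Gata2 had no adjusted p, so the count is 0 of 9, against 1.98% of all 12069 genes with an adjusted p. At that share a list of 9 genes is too short for a count of 0 to stand apart from the background. At an unadjusted p under 0.05 the count was 0 of 10, against 12.0% of all 13658 genes. The fold changes of the 9 factors with an adjusted p lay between -0.36 and 0.15 on the log2 scale in the authors' deposited table, with a median of -0.11 against 0.00 over all genes with an adjusted p. Of all 10, 5 stood below 0 and 5 above. Their median absolute Wald statistic was 0.73, against 0.86 over all genes with an adjusted p. Each 95% interval held 0, and the widest were those of Gata2 and Tfap2a, the factors with the lowest mean normalized counts.

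**Figure D1:**
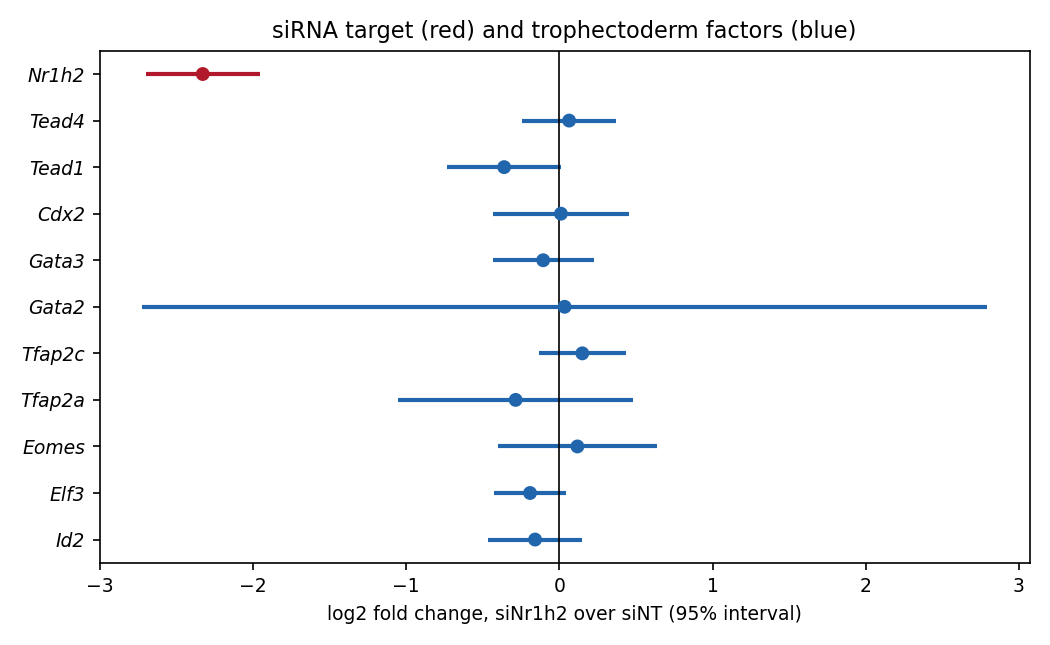
Log2 fold change of siNr1h2 over siNT (x axis) for the siRNA target Nr1h2 and the 10 trophectoderm factors (y axis), as points with 95% intervals from the deposited standard errors. The point of Nr1h2 lies at -2.33 with its interval below 0. The interval of every factor includes 0, narrowly for Tead1 (upper end 0.01) and Elf3 (upper end 0.04). That of Gata2 has a width of several units.

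Among the Hippo effectors, Tead4, the factor that embryos need to form a trophectoderm, stood at a log2 fold change of 0.06 ± 0.16 (SE) in the authors' deposited table (adjusted p = 0.916). Its mean normalized count was 604 over all samples, from which levels of 591 in siNT and 617 in siNr1h2 were derived. The 95% interval of the ratio ran from 0.84 to 1.29, so a fall of more than 15.6% lay outside it. Tead1, a relative that binds the same coactivators, had the largest point estimate among the 9 factors with an adjusted p, at -0.36 ± 0.19 in the authors' deposited table (p = 0.0564, adjusted p = 0.396). Its derived levels were 348 in siNT and 271 in siNr1h2, a ratio of 0.78 with an interval from 0.60 to 1.01. On the log2 scale the interval of Tead1 thus reached 0 only near its upper end of 0.01. That of Elf3 did so too, with an upper end of 0.04. The change in Tead4 minus that in Tead1 was 0.42, with a 95% interval from -0.06 to 0.91, so the relatives were not separated by their errors.

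Cdx2, the homeobox factor that fixes trophectoderm fate and represses Pou5f1, gave the smallest estimate of the 9. Its log2 fold change was 0.01 ± 0.23 (SE) in the authors' deposited table (adjusted p = 0.992). The derived level was 191 in siNT and 192 in siNr1h2 morulae. The interval of the ratio, 0.74 to 1.37, left out falls beyond 25.9% and rises beyond 36.7%.

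Gata3, the zinc finger factor that acts beside CDX2 downstream of TEAD4, stood at -0.11 ± 0.17 in the authors' deposited table (adjusted p = 0.849). Its mean normalized count was 1213, with derived levels of 1258 in siNT and 1169 in siNr1h2. Its standard error was 1.19 times the median of the 1295 genes with a mean within 1.5 times of its own, within the spread of that ratio among those genes (SD 0.45). Gata2, the relative that works with Gata3 in later trophoblast, was barely sampled, with a mean normalized count of 3.72. Its estimate of 0.03 ± 1.41 in the authors' deposited table allows anything from a fall of 84.9% to a rise of 594%. The difference between the relatives, -0.14 with an interval from -2.92 to 2.64, covers large differences in both directions.

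Of the AP-2 factors, Tfap2c, which supports outer-cell polarity genes and Cdx2, had the highest estimate of the 9. It stood at 0.15 ± 0.14 in the authors' deposited table (adjusted p = 0.723), with derived levels of 935 in siNT and 1037 in siNr1h2. A fall of more than 8.85% lay outside its interval, the tightest lower bound among the 10 factors. Tfap2a, a relative also found in trophoblast, stood at -0.29 ± 0.39 in the authors' deposited table (adjusted p = 0.818). Its derived levels were 63.3 in siNT and 51.9 in siNr1h2, and the wide interval of the ratio, 0.48 to 1.40, comes with its low mean normalized count of 57.6. The change in Tfap2c exceeded that in Tfap2a by 0.44, with an interval from -0.38 to 1.26.

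Eomes, the T-box factor of trophoblast stem cells, stood at 0.12 ± 0.26 in the authors' deposited table (adjusted p = 0.903), with derived levels of 127 in siNT and 138 in siNr1h2. Elf3, an epithelial ETS factor, was the best measured of the 10. Its log2 fold change was -0.19 ± 0.12 in the authors' deposited table (p = 0.106, adjusted p = 0.502), with derived levels of 3268 in siNT and 2861 in siNr1h2. The interval of its ratio ran from 0.75 to 1.03 and so left out a rise of more than 2.84%. Id2, which has no DNA-binding region and holds basic helix-loop-helix proteins in inactive dimers, stood at -0.16 ± 0.16 in the authors' deposited table (adjusted p = 0.733). Its derived levels were 733 in siNT and 657 in siNr1h2.

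The factors differed far more from each other in level than between the groups. Elf3 had a mean normalized count of 1463 per kb and was 3.88 times above Gata3 (95% interval 3.37 to 4.46), which stood at 377 per kb. Tfap2c (301 per kb) was 1.25 times below Gata3 (interval 1.08 to 1.46), and it did not differ beyond the errors from Id2 (285 per kb). Tead4 (168), Cdx2 (84.6) and Eomes (35.9) came next, each below the factor before it by more than the errors. Eomes and Tead1 (30.8 per kb) could not be told apart, at a ratio of 1.17 with an interval from 0.93 to 1.45. Tfap2a (12.8) and Gata2 (1.01) were lowest. Half-widths here rest on the deposited standard errors and leave out errors of exon length and of capture between genes.

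**Figure D2:**
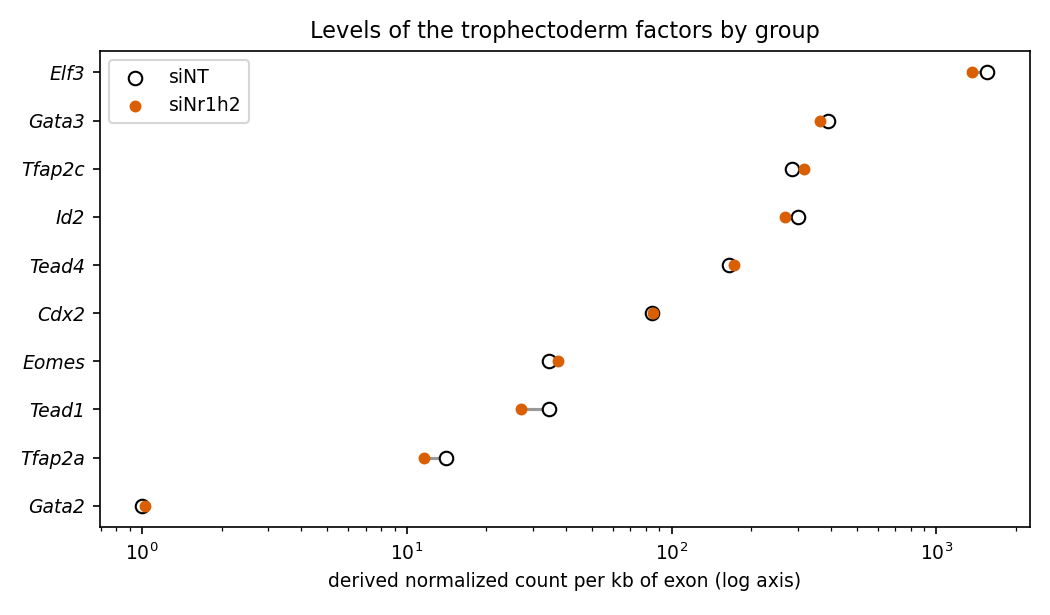
Derived normalized counts per kb of exon (x axis, log scale) of the 10 factors in siNT (open circles) and siNr1h2 (filled circles), ordered by mean level. Pairs of points lie close together from Elf3 at 1560 and 1366 per kb to Gata2 at 1.00 and 1.02, and the widest visible gaps are those of Tead1 and Tfap2a.

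The change that a factor needed for a call differed by gene. With its own standard error and the Wald statistic of the last called gene, Elf3 needed a change of 1.31 times to be called and Tfap2c one of 1.39 times. Tead4, Id2 and Gata3 needed 1.43, 1.43 and 1.47 times. Tead1, Cdx2 and Eomes needed 1.54, 1.67 and 1.83 times, and Tfap2a needed 2.45 times. For Cdx2, counting error alone, estimated from the derived levels as if size factors were near 1, gave 21.4% of the variance of the deposited fold change. For Elf3 that share was 4.86%. The rest is spread beyond counting, as the authors' fit estimated it. The standard errors of the factors were 0.93 (Elf3) to 1.19 (Gata3) times the median of genes with like mean counts. Whether they hold each gene's own spread between samples was not tested.

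**Figure D3:**
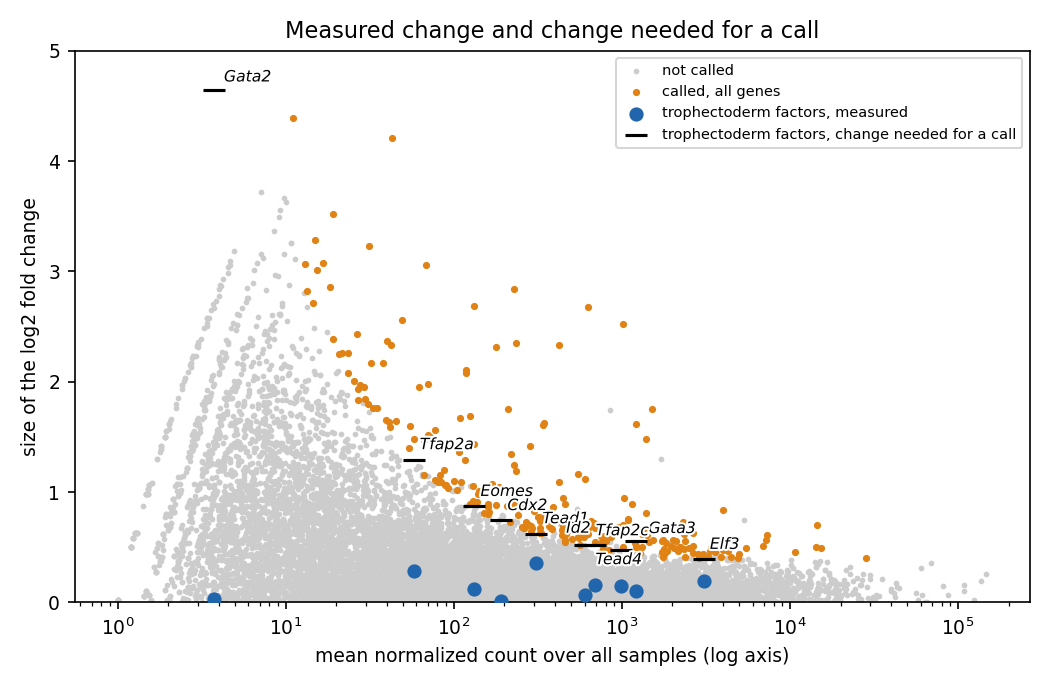
Size of the log2 fold change (y axis) against the mean normalized count over all samples (x axis, log scale) for all genes, with called genes in orange, the 10 factors in blue and black bars for the change each factor needed for a call. Every blue point lies below its bar. The highest bar is that of Gata2, which had no adjusted p, and the lowest that of Elf3. The descent is not steady, as the bar of Gata3 lies above those of Tead4, Id2 and Tfap2c despite its higher mean.

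Of 21 named relatives of these factors in the same protein families, 13 were in the table and 10 had an adjusted p. Of these, 0 were called, against 1.98% of all genes with an adjusted p. A list this short cannot stand apart from that share by a count of 0. At an unadjusted p under 0.05 there was 1 of 13, against 12.0% of all 13658 genes. That gene was Elf1, an ETS factor, at -0.75 ± 0.36 in the authors' deposited table (adjusted p = 0.339). Gata6, the primitive endoderm GATA factor, stood at 0.20 ± 0.12 (adjusted p = 0.458) and Elf4 at -0.14 ± 0.27 in the authors' deposited table. Tfap2b, at a mean of 6.50 normalized counts, was left without an adjusted p. Tead2 and Id3, named beyond the rule as close relatives of Tead4 and Id2, stood at -0.05 ± 0.29 and -0.03 ± 0.16 in the authors' deposited table. The family list had a median of -0.03.

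Upstream of the factors, a list of 24 genes named the Hippo, polarity and Notch pathways and also Carm1. All were measured and 0 were called, against 1.98% of all genes with an adjusted p. In a list of this length a count of 0 does not stand apart from that share. At an unadjusted p under 0.05 there were 5 of 24, against 13.3% of all genes with an adjusted p. The polarity scaffold gene Pard3 and the apical linker gene Ezr stood at 0.56 ± 0.18 (adjusted p = 0.0629) and 0.55 ± 0.19 (adjusted p = 0.0998) in the authors' deposited table. Amotl2, which tethers YAP1, stood at -0.49 ± 0.17 (adjusted p = 0.123) and the receptor gene Notch1 at 0.90 ± 0.32 (adjusted p = 0.139) in the authors' deposited table. Named for their role as direct partners of TEAD4 are its coactivators. Yap1 stood at -0.06 ± 0.15 and Wwtr1, which encodes TAZ, at 0.05 ± 0.14 in the authors' deposited table. The list's median was 0.09.

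Among 27 other transcription factors of trophectoderm or trophoblast, 25 were in the table and 24 had an adjusted p. None of the 24 was called, against 1.98% of all genes with an adjusted p, and their median was 0.13. In a list of this length a count of 0 does not stand apart from that share. At an unadjusted p under 0.05 there was 1 of 25, against 12.0% of all 13658 genes. Creb3l2, a membrane-bound bZIP factor, stood at -1.72 ± 0.72 in the authors' deposited table (adjusted p = 0.242) at a mean normalized count of only 15.3. Cebpa, a bZIP factor, stood at 0.57 ± 0.32, Tfeb, a lysosomal gene regulator needed in the placenta, at 0.38 ± 0.23 and Sox15 at -0.26 ± 0.16 in the authors' deposited table.

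A list of 32 trophectoderm effectors named keratin, junction, transport and uptake genes, with other genes such as Ptges, Fgfr2 and Dppa1. In the table were 30 of them. Of these 30 genes, 29 had an adjusted p, 4 were lower, 0 were higher and 25 did not pass. Without Dppa1, which is named for pluripotent cells and is no structural gene of the trophectoderm, 3 of 28 were lower. The background was 1.52% for lower and 0.456% for higher genes, and the list's median was -0.19. The lower genes were known from earlier results of these data when the list was made, so their count is not independent evidence. They were Krt8, a keratin of simple epithelia (-0.50 ± 0.14, adjusted p = 0.0211), Dab2, an endocytic adaptor (-0.44 ± 0.12, adjusted p = 0.0155), Ptges, a prostaglandin synthase (-0.51 ± 0.13, adjusted p = 0.0123), and Dppa1 (-1.12 ± 0.16) in the authors' deposited table. The calls of Krt8, Dab2 and Ptges ended at a threshold of 0.01 and with Holm adjustment, and that of Dppa1 did not.

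**Figure D4:**
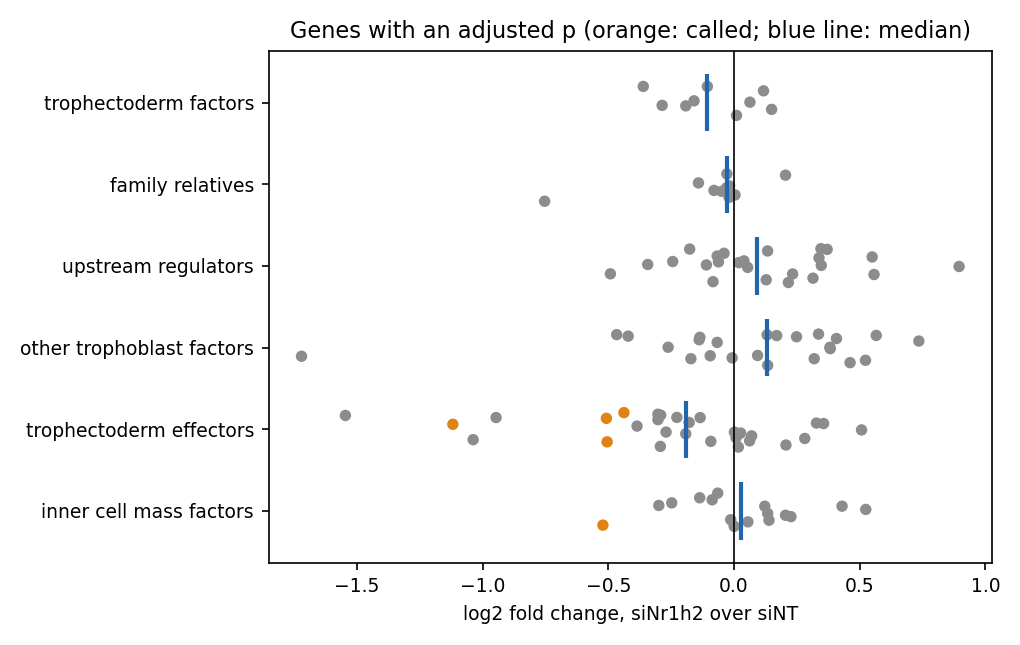
Log2 fold change of siNr1h2 over siNT (x axis) for genes with an adjusted p in 6 lists (y axis), 1 point per gene, with the list's median as a blue line and called genes in orange. Called genes appear among the effectors (4) and the inner cell mass factors (1), and the 9 trophectoderm factors lie between -0.36 and 0.15.

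On the other side of the lineage border, 1 of 16 inner cell mass and pluripotency factors was lower, against 1.52% of all genes with an adjusted p. The other 15 did not pass, and the list's median was 0.03. A list of 16 genes is too short for 1 call to stand apart from that share. At an unadjusted p under 0.05 there were 2 of 16, against 13.3% of all genes with an adjusted p. The lower gene was Tdgf1, a Nodal co-receptor (-0.52 ± 0.16, adjusted p = 0.0489), in the authors' deposited table. This call ended at a threshold of 0.01, with Holm adjustment, without the low-count filter and when fold changes were centred on genes with a mean of at least 500. Pou5f1, the factor that CDX2 opposes, stood at 0.43 ± 0.15 (adjusted p = 0.117) and Nr5a2, an orphan nuclear receptor, at -0.25 ± 0.16 in the authors' deposited table. The change in Cdx2 minus that in Pou5f1 was -0.42, with a 95% interval from -0.95 to 0.11. The change in Cdx2 minus that in Nanog, chosen after values were seen, was -0.05 (-0.57 to 0.48). In whole embryos, fewer outer cells and less RNA per outer cell cannot be told apart for any of these genes.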

How the data were processed

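Polyadenylated RNA of 4 morula samples (2 siNr1h2, 2 siNT) was made into libraries with SMART-Seq v4 and Nextera XT, per the labels' protocols. The build was mm9, and the tools named without roles are Cufflinks 2.2.1, DESeq2, edgeR, HTSeq 0.12.4, RSEM and STAR, per the submitters' processing notes. The annotation is not given in the sources used here. Strand is not kept by this kit, so a gene and an overlapping antisense gene share their reads.

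The authors deposited 1 comparison with DESeq2 column names, per the file headers. The authors' mean normalized count, a signal value, is in DESeq2 the average over samples of counts divided by size factors, and is read so from the column name, per the file headers. The authors deposited the log2 fold change of siNr1h2 over siNT with its standard error, per the file headers, and it is read as computed from those counts. The authors deposited a score, per the file headers. It is read as the Wald statistic, because it equalled the fold change over its error in every row. The authors deposited a p-value and an adjusted p-value, per the file headers, which do not name the methods. Recomputing gave the same p-values from the score as a two-sided normal p. It gave the same adjusted values by the Benjamini-Hochberg method over 12069 genes. For 1589 genes with means up to 8.00 there is no adjusted value. The total count per sample is unknown. The table holds 0 columns of values per sample, so no gene was tested again.

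Computed here (Python 3.11.15, pandas 2.3.3, scipy 1.17.1) were normal 95% intervals from the deposited standard errors. Group levels were derived from the mean normalized count and the ratio. Levels per kb used exon unions of GENCODE M21 (GRCm38) by symbol, and the error of a mean level was taken as 1/2 of the fold change's standard error. Differences between genes took errors as independent, although genes share the samples. Named genes are all 10 members, and from each list the called genes and the 4 with the smallest p-values. The members and lists were chosen with earlier results of these data known. Scripts were tested on simulated fold changes. Alternatives covered the threshold, Holm adjustment, the low-count filter, scaling and a t distribution.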

Additional observations from a re-analysis of the deposited data

How the results depend on the processing

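None of the 9 factors with an adjusted p was called under any of the 8 alternatives, and the lowest adjusted p was 0.135 (Elf3, centred on ribosomal protein genes). As the lowest deposited adjusted p was 0.396 (Tead1), thresholds of 0.01 and 0.1 and Holm adjustment could call none of the 9. Changes of the low-count filter could call none either, because an adjusted p is never below its unadjusted p. The smallest deposited Wald p of the factors was 0.0564 (Tead1). Without a low-count filter Gata2 received an adjusted p too, but its Wald p of 0.981 could not pass. For the factors the outcome was open only where the scaling was changed. Centring on ribosomal protein genes shifted all values by 0.11 on the log2 scale and turned Tead4 to -0.044 and Cdx2 to -0.10, neither called. Over all genes, 184 were lower and 55 higher. These counts were 92 and 17 at 0.01, 48 and 1 with Holm adjustment, and 448 and 36 centred on ribosomal protein genes, and 125 were higher at 0.1. Lower genes of the effector list numbered 1 (Dppa1) instead of 4 at 0.01 and with Holm adjustment, where Krt8, Dab2 and Ptges were not called. The lower inner cell mass factor, Tdgf1, was lost (0 called) at 0.01, with Holm adjustment, without the filter and centred on genes with a mean of at least 500. Of the upstream regulators 2 were higher at 0.1, 1 was higher centred on genes of at least 500, and 1 was lower centred on ribosomal protein genes, as was 1 embryo marker. With a t distribution of 2 degrees of freedom 0 genes were lower or higher, 0 effectors and 0 inner cell mass factors were called, and Nr1h2 at -2.33 had an adjusted p of 0.948. That threshold is out of reach for any gene here, so it says nothing about stability. No paired analysis was possible because the table holds no values per sample, and replicates could not be left out for the same reason. Gata2 and Tfap2a had the lowest mean normalized counts and the widest intervals.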
